A study of Mus musculus and Homo sapiens with 4 samples.

Results

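The unfolded protein response and the amino acid response were examined in mouse embryonic fibroblasts (MEFs) through 10 genes, Hspa5, Herpud1, Xbp1, Atf4, Ddit3, Trib3, Chac1, Asns, Psat1 and Sesn3. They were taken by gene symbol, and all 10 were found, each on 1 of the 23329 entries of the deposited RPKM values. One library came from wild-type embryos (MEF WT) and one from embryos without Neat1, a long non-coding RNA that builds the nuclear bodies called paraspeckles (MEF NEAT1 KO). Both cultures were of the C57BL/6 strain, were derived from E13.5 embryos and were used at passage 2 to 3, with no stress agent named in the labels. The libraries were made from poly-A RNA, with no step that keeps the strand described for them. Positions are those of the files' mm10 entries. Prostate cancer libraries of the same series were not analysed here. The labels give neither the number of embryos per culture nor their sex.

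Proteins that fold badly in the endoplasmic reticulum (ER) are sensed by the membrane proteins IRE1, PERK and ATF6. IRE1 splices the Xbp1 transcript, ATF6 is cut into a transcription factor, and PERK phosphorylates the translation factor eIF2α. The same phosphorylation follows from GCN2 when amino acids run short and from PKR when double-stranded RNA is present. It slows general translation and favours translation of ATF4, which then drives genes of amino acid supply as well as Ddit3, the gene of the factor CHOP. Because ATF4 is set largely at translation and XBP1 by splicing, the summed transcript level of either gene does not report the active protein.

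Each genotype gave 1 library, so the spread between replicates is unknown and no test between the cultures was made. The log2 ratio is that of the KO value plus 1 over the WT value plus 1, so a positive value is higher in KO. Low values pointed to about 62800000 counted reads in WT and 59300000 in KO. The ratios of unadjusted RPKM are given with 95% intervals from the estimated read pairs. These intervals cover counting error only, not the variation between cultures, embryos or library preparations. The estimated pairs per member and library ran from 180 to 58211.

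Neat1 itself, the check of the labels, had 29.5 RPKM in WT and 2.01 RPKM in KO (log2 ratio -3.34). Of 12 fibroblast markers, all were detected in both libraries, from 4.18 to 3151 RPKM in WT and from 13.8 to 2448 RPKM in KO. Their log2 ratios ran from -0.56 for Fn1 to 1.92 for Lum, so the cultures differed in fibroblast genes as well. Of 15 epithelial, endothelial and skeletal muscle markers, 3 reached 1 RPKM in WT and 1 in KO. Of 5 neural markers, Tubb3 had 35.9 and 36.1 RPKM, Nes had 31.4 and 11.6 RPKM, and the others had at most 1.29 RPKM. The Y-linked gene Ddx3y had 0.0174 RPKM in WT and 4.18 RPKM in KO, so genotype and embryo sex cannot be told apart here.

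None of the 10 stress genes differed by a log2 ratio of 1 in size. Across all entries 0.977% lay above 1 and 0.334% below -1. All 10 members reached 1 RPKM, and among entries with 1 RPKM in at least 1 library the shares were 1.99% and 0.68%. The members ran from -0.49 for Psat1 to 0.61 for Herpud1, with a median of 0.01, against a median of -0.06 over the 10888 expressed entries, those that reached 1 RPKM in WT and in KO. All 10 lay inside the central 95% of those entries, from -0.70 to 0.80. Of the 10, 5 were higher in KO and 5 lower, beside 39.1% and 60.9% of the expressed entries. The ER chaperone gene Hspa5, Herpud1 of misfolded protein disposal and the IRE1 target Xbp1 were higher by ratios of 1.33 to 1.54. Asns and Psat1, of amino acid synthesis, were lower at ratios of 0.77 and 0.70. Atf4, Ddit3 and Trib3 lay between 0.96 and 1.12. Chac1, a target of ATF4 like Trib3, was lower at 0.71, and Sesn3 stood at 0.89. At 1.5-fold, a log2 ratio of 0.58 in size, Herpud1 was the only member past the threshold. Of all entries 2.37% were higher and 2.54% lower by as much, and of those with 1 RPKM in a library 4.63% and 4.94%.

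**Figure D1:**
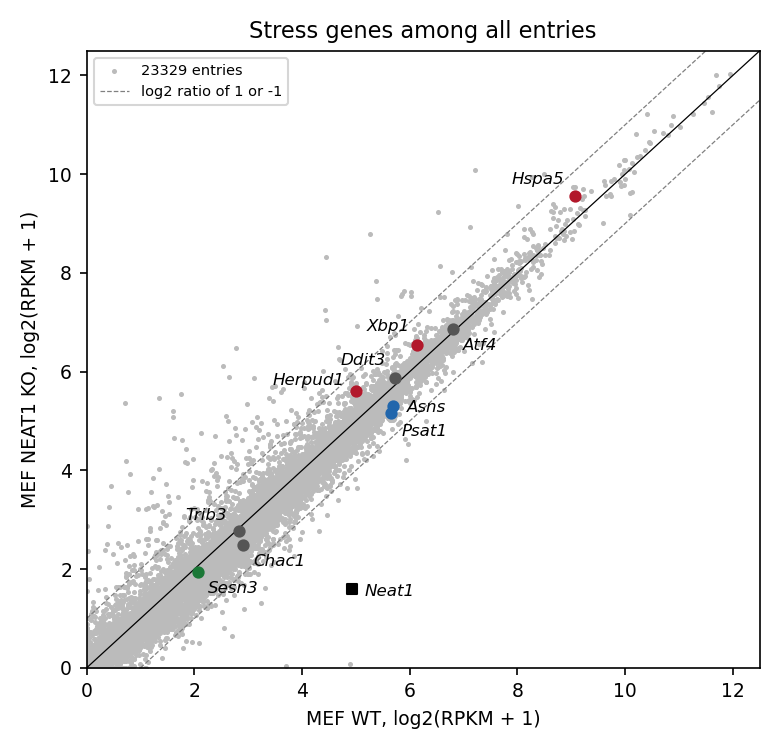
Each grey point is 1 of 23329 entries, with log2(RPKM + 1) in MEF WT on the horizontal axis and in MEF NEAT1 KO on the vertical axis (1 library each). The solid line marks equal values and the dashed lines a log2 ratio of 1 or -1. The coloured stress genes lie between the dashed lines, whereas Neat1 (square) lies below them at -3.34.

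Hspa5 (chr2:34772090-34776529) encodes BiP, the main HSP70 chaperone of the ER lumen, and was the highest member in both libraries. It had 533 RPKM in WT and 751 RPKM in KO, ranks 57 and 51 of all entries. The KO value was 1.41 times that of WT (95% counting interval 1.39 to 1.43), a log2 ratio of 0.49. Of the expressed entries, 4.91% had a log2 ratio at least as high. After quantile normalization, which replaces each value by the mean of the libraries at its rank, the log2 ratio of Hspa5 was 0.18.

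Herpud1 (chr8:94386500-94395358) encodes an ER membrane protein that assists the disposal of misfolded proteins. It had 31.1 RPKM in WT and 47.9 RPKM in KO, giving a ratio of 1.54 (counting interval 1.45 to 1.64) and a log2 ratio of 0.61. This was the largest difference of the 10 genes, and 3.71% of expressed entries were at least as high. An antisense gene, Gm15890, overlaps the Herpud1 entry by 473 bases, and where the strand is not kept their reads cannot be told apart.

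Xbp1 (chr11:5520967-5525872), whose transcript IRE1 splices, had 69.0 RPKM in WT and 91.7 RPKM in KO. Its ratio was 1.33 (counting interval 1.27 to 1.39) and its log2 ratio 0.40, with 6.4% of expressed entries at least as high. RPKM per gene does not separate the spliced from the unspliced form. The KO library was thus higher for each of Hspa5, Herpud1 and Xbp1.

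The Hspa5 promoter is the textbook example of control by ER stress and is shown for that reason. The sequence is the 250 bases before the RefSeq start in GRCm38.p6, written 5′ to 3′ along the gene. Capitals mark the ER stress response element, which is CCAAT, then any 9 bases, then CCACG, searched on both strands along with TGATGNAA, the C/EBP-ATF response element.
Hspa5, chr2:34771840-34772089, plus strand: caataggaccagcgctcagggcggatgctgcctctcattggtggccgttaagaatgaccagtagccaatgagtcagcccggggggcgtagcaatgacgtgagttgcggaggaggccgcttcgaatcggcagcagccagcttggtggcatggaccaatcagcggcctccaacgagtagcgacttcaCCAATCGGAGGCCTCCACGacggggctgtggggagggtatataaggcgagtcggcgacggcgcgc
The match lies 65 to 47 bases before the start, and the window held no C/EBP-ATF response element.

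The ER stress response element stood in 0.113% of 32851 promoter windows of this length and in 1 of the 10 members. Only the form with 9 bases between its parts was searched. The count therefore says nothing of ER stress elements of other forms, in Herpud1 or in any other member. The Xbp1, Atf4, Ddit3, Trib3, Psat1 and Sesn3 windows held neither element, which says only that these letters are not in those windows. The Xbp1 window (chr11:5520391-5520640) ended short of the measured entry, which starts at 5520967, and so missed the bases directly before it. Among expressed entries with a window that held the ER stress response element, 8 were higher and 5 lower in KO, and their median log2 ratio was 0.06. Over all expressed entries 39.1% were higher and 60.9% lower, with a median of -0.06. Hspa5 and 6 genes of the ER chaperone list described next were among those with the element, so this count is not separate from that list.

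Most other genes of the folding machinery were also higher in KO. Of 15 ER chaperones and folding enzymes, 12 were higher in KO and 3 lower, and the median log2 ratio was 0.21. For the lists a gene counts as expressed where it reached 1 RPKM in at least 1 library, as 11463 entries did, and of those entries 39.2% were higher in KO and 60.8% lower. None had a log2 ratio past 0.58 in size. The highest were Sdf2l1, a partner of BiP (41.5 and 62.3 RPKM in WT and KO, log2 ratio 0.57), Creld2, an ER stress-induced protein (75.7 and 107 RPKM, 0.49), and Manf, a secreted ER stress protein (111 and 150 RPKM, 0.43). The abundant chaperone Hsp90b1 (312 and 303 RPKM, -0.04), the lectin Canx (143 and 131 RPKM, -0.13) and the disulphide isomerase Pdia3 (313 and 298 RPKM, -0.07) were level or slightly lower. The higher values were therefore not shared by all ER chaperones. After quantile normalization the median of these 15 genes was 0.11.

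Among genes of ER-associated degradation and translocation, 11 of 16 expressed genes were higher and 5 lower, with a median log2 ratio of 0.11. The share higher over all entries with 1 RPKM in a library was 39.2%. Syvn1, the ubiquitin ligase of this pathway, had 29.9 RPKM in WT and 40.8 RPKM in KO (log2 ratio 0.43). Sec61b, a subunit of the translocon, had 229 and 306 RPKM (0.42), and Selk, a small ER selenoprotein, had 30.9 and 36.9 RPKM (0.25). Sec63 and Sec61g were among the lower genes, with log2 ratios of -0.12 and -0.08, and the counting interval of Sec61g, 0.81 to 1.10, held 1.

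**Figure D2:**
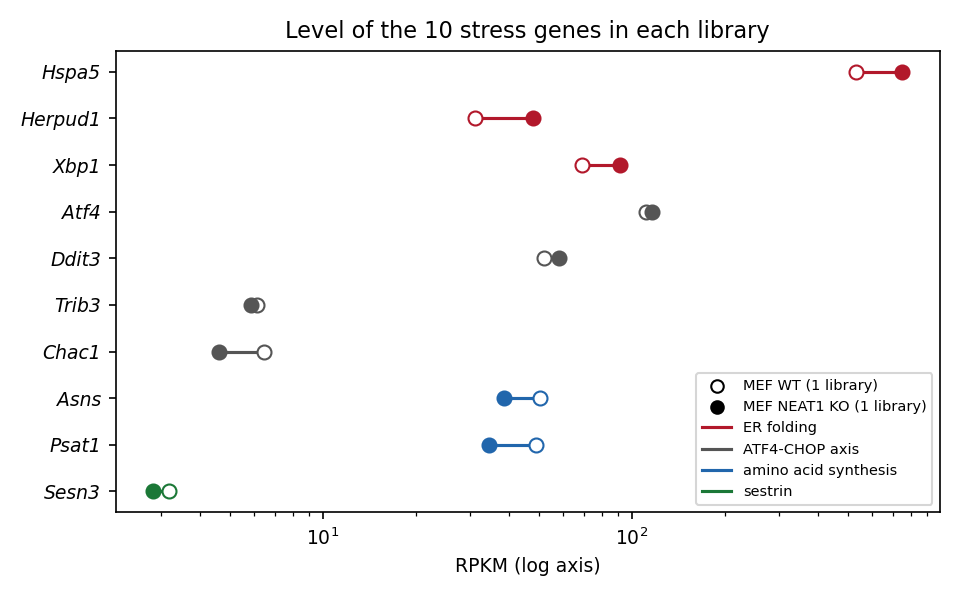
RPKM of the 10 genes on a log axis, with an open point for the MEF WT library and a filled point for the MEF NEAT1 KO library, coloured by role. Hspa5, Herpud1 and Xbp1 shift to the right in KO, Asns, Psat1 and Chac1 shift to the left, and the remaining points nearly coincide. No error bar is drawn because each genotype has 1 library.

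Atf4 (chr15:80255184-80257541), which encodes the factor at the centre of both responses, had 111 RPKM in WT and 116 RPKM in KO. The ratio was 1.05 (counting interval 1.01 to 1.09) and the log2 ratio 0.07, with 28.5% of expressed entries at least as high. Ddit3 (chr10:127290793-127296288), which encodes the pro-apoptotic factor CHOP, had 51.8 RPKM in WT and 57.9 RPKM in KO, a ratio of 1.12 (1.04 to 1.20) and a log2 ratio of 0.16. The Ddit3 entry shares 68 bases with the oppositely oriented Mars gene, whose own values were 36.4 and 34.7 RPKM. Atf4 ranked 503 of all entries in WT and 476 in KO, and Ddit3 ranked 1241 and 1112, so both were abundant and nearly equal between the cultures.

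Trib3 and Chac1, targets of these factors, had lower levels than Atf4 and Ddit3 in both libraries. Trib3 (chr2:152337425-152344060), a pseudokinase that ATF4 and CHOP induce and that restrains CHOP, had 6.10 RPKM in WT and 5.87 RPKM in KO. Its ratio was 0.96, with a counting interval of 0.83 to 1.11 that held 1, and its log2 ratio of -0.05 became 0.02 at the most under other scalings. Chac1 (chr2:119351242-119354327), which degrades glutathione and is a target of ATF4, had 6.46 RPKM in WT and 4.60 RPKM in KO, a ratio of 0.71 (0.60 to 0.85) and a log2 ratio of -0.41. Of the expressed entries, 9.17% had a log2 ratio at least as low. The counting intervals of Trib3 and Chac1, which lie downstream of the same factor, overlapped, and that of Chac1 alone lay below 1.

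Most regulators around ATF4 and CHOP were higher in KO. Of 21 expressed genes on this list 13 were higher and 8 lower, with a median log2 ratio of 0.21, beside 39.2% higher and 60.8% lower among all entries with 1 RPKM in a library. Cebpb and Ddit4, 2 of the 21, lay above 1, as did 1.99% of those entries. Cebpb, a bZIP factor that also serves in immune cells, had 3.15 RPKM in WT and 8.09 RPKM in KO (log2 ratio 1.13, ratio 2.57, interval 2.12 to 3.14). Ddit4, an inhibitor of the growth kinase complex mTORC1, had 19.0 and 40.1 RPKM (1.04, ratio 2.12, interval 1.96 to 2.29). Vldlr, a lipoprotein receptor, had 1.85 and 3.45 RPKM (0.64). Jdp2, a bZIP repressor, was the lowest with 26.3 and 16.1 RPKM (-0.67), followed by the pro-apoptotic Bcl2l11 (3.70 and 3.04 RPKM, -0.22). Chac2, the relative of Chac1, had 2.41 and 1.97 RPKM, and its counting interval of 0.59 to 1.10 held 1.

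All 8 macrophage markers were higher in KO. Of these, 4 reached 1 RPKM in a library, and all 4 were higher, beside 39.2% of all such entries. No counting interval was available for Cd68, and among the other markers 5 intervals lay above 1 and 2 held 1. The summed level of the 8 markers was 19.6 RPKM in WT and 49.6 RPKM in KO, most of it Lyz2 (13.9 and 34.7 RPKM) and Cd68 (2.79 and 7.26 RPKM). Cd14 had 1.67 and 4.73 RPKM, Emr1 0.482 and 1.37 RPKM, Itgam 0.199 and 0.542 RPKM and Csf1r 0.521 and 0.775 RPKM. Ptprc (0.0449 and 0.0813 RPKM) and Cx3cr1 (0.0600 and 0.0999 RPKM) were near 0, with counting intervals that held 1, and no marker was at 0. The part of such cells in the values of Cebpb, Ddit4 or any member was not tested, and in bulk RNA a different share of a cell type cannot be told apart from a different level per cell.

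Among the sensors and the eIF2α kinases, 1 of 9 genes lay above 1, beside 1.99% of entries with 1 RPKM in a library. Eif2ak2, which encodes PKR and is induced by interferon, had 7.29 RPKM in WT and 16.9 RPKM in KO (log2 ratio 1.11, ratio 2.31, interval 2.14 to 2.49). The interferon-induced gene Isg15, named after its values were seen, was also higher in KO, with 20.8 and 319 RPKM. Whether interferon had a part in the Eif2ak2 value was not tested. Ern1, the gene of IRE1, had 5.74 and 7.56 RPKM (0.34), and Eif2ak3, that of PERK, had 6.47 and 7.58 RPKM (0.20). Eif2ak4, the gene of the amino acid sensor GCN2, was lower with 6.64 and 5.32 RPKM (-0.27). Eif2b5, a subunit of the exchange factor that eIF2α phosphorylation blocks, had 32.4 and 29.7 RPKM (-0.12), and Eif2s1, which encodes eIF2α, had 18.6 and 13.3 RPKM (-0.46).

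**Figure D3:**
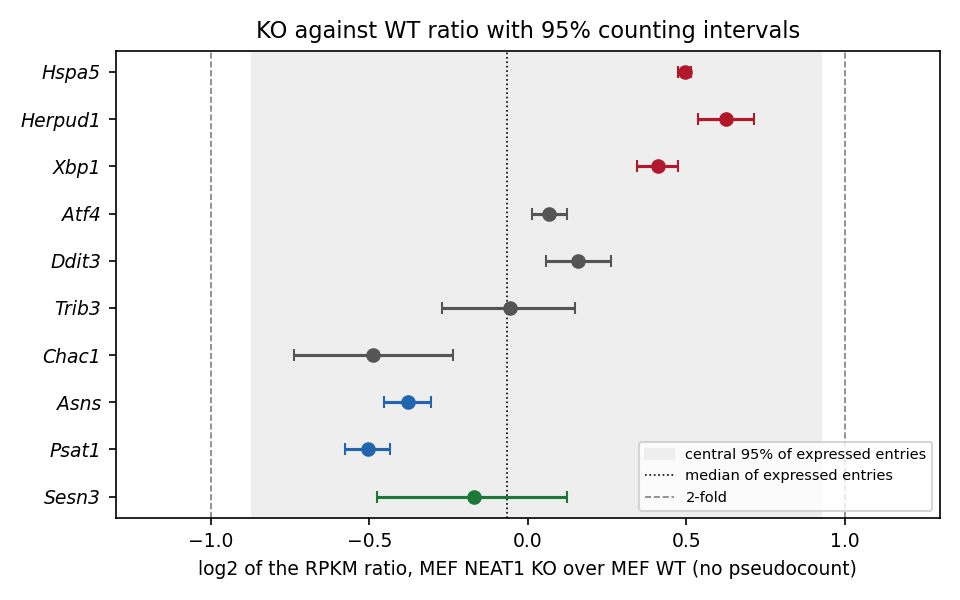
Log2 of the unadjusted RPKM ratio of MEF NEAT1 KO to MEF WT for each gene, with bars for the 95% counting interval. Grey shading spans the central 95% of expressed entries, the dotted line is their median, and the dashed lines mark 2-fold. The bars of Trib3 and Sesn3 cross 0, and all 10 points lie inside the shading.

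Asns (chr6:7675171-7693182), asparagine synthetase, is a standard readout of the amino acid response. It had 50.3 RPKM in WT and 38.7 RPKM in KO, a ratio of 0.77 (counting interval 0.73 to 0.81) and a log2 ratio of -0.37. Psat1 (chr19:15905123-15925059), the phosphoserine aminotransferase of serine synthesis, had 49.1 RPKM in WT and 34.6 RPKM in KO, a ratio of 0.70 (0.67 to 0.74) and a log2 ratio of -0.49. Of the expressed entries, 11.5% were at least as low as Asns and 6.39% at least as low as Psat1. The order of the members differed accordingly, since Herpud1 stood below Asns and Psat1 in WT and above both in KO. Hspa5 was 10.6 times the level of Asns in WT and 19.4 times in KO.

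The promoters of Asns and Chac1 are shown because they carry the C/EBP-ATF response element through which ATF4 acts on such genes. Windows and build are those given for Hspa5, and the capitals mark TGATGNAA on either strand.
Asns, chr6:7693210-7693459, minus strand: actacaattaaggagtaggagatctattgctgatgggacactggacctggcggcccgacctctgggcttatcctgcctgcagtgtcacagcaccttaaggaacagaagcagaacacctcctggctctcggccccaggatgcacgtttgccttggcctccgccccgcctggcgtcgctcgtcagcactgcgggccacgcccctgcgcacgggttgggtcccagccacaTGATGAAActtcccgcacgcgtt
Chac1, chr2:119350992-119351241, plus strand: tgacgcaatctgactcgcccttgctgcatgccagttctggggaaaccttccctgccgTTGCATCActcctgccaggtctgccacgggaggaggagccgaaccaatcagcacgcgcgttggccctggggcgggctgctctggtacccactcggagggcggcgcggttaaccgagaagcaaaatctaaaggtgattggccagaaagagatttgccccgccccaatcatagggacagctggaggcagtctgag
The match lies 23 to 16 bases before the Asns start on the strand of the gene, and 193 to 186 bases before the Chac1 start on the opposite strand. With Herpud1, 3 of the 10 members held it, against 3.45% of all 32851 windows. The members with this element differed in direction, Herpud1 being higher in KO and Asns and Chac1 lower. Over all 181 expressed entries with a window that held it, 81 were higher and 100 lower in KO, and their median log2 ratio was -0.04. The shares over all expressed entries were 39.1% higher and 60.9% lower.

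Most enzymes around Psat1 were lower as well, though 6 of the 15 expressed ones lay above the -0.06 median of all expressed entries and 9 did not. Of 15 expressed genes of serine, proline and one-carbon metabolism, 12 were lower in KO and 3 higher, and the median log2 ratio was -0.16, where 60.8% of entries with 1 RPKM in a library were lower. Phgdh, which opens the serine pathway ahead of Psat1, had 89.3 RPKM in WT and 52.6 RPKM in KO (log2 ratio -0.75, ratio 0.59, interval 0.56 to 0.62). Psph, which completes the pathway, had 10.4 and 7.35 RPKM (-0.45). All enzymes of the serine pathway, Phgdh, Psat1 and Psph, were therefore lower in KO. Mthfd1l, a mitochondrial folate enzyme, was the highest with 6.20 and 9.15 RPKM (0.50), ahead of the transaminase Got1 (20.8 and 23.3 RPKM, 0.16). Cth, of cysteine synthesis, had 1.71 and 1.90 RPKM with a counting interval of 0.83 to 1.47.

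Of 10 expressed amino acid transporters, 7 were lower and 3 higher, with a median log2 ratio of -0.22. Among all entries with 1 RPKM in a library, 60.8% were lower, so this count was near the background. Slc7a3, a cationic amino acid carrier, had 2.78 RPKM in WT and 1.29 RPKM in KO (-0.72), and the leucine carrier Slc7a5 had 23.2 and 14.5 RPKM (-0.64). Its partner chain Slc3a2 had 54.9 and 59.3 RPKM (0.11), so the chains of that transporter differed in direction. The glycine carrier Slc6a9 had 4.94 and 3.53 RPKM (-0.39), and the neutral amino acid carrier Slc1a4 had 17.4 and 19.6 RPKM (0.17). Slc43a1, at 1.07 and 1.23 RPKM, had a counting interval of 0.87 to 1.51.

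The cytosolic aminoacyl-tRNA synthetases, many of which ATF4 induces, had the narrowest range of the pathway lists. Of 20 genes, 19 were lower in KO and 1 was higher, Kars (76.2 and 77.8 RPKM, 0.03), and log2 ratios ran from -0.36 to 0.03. Among all entries with 1 RPKM in a library, 60.8% were lower. Lars had 20.8 and 15.9 RPKM (-0.36), Cars 17.0 and 13.7 RPKM (-0.29) and Sars 58.6 and 49.1 RPKM (-0.25). Their median of -0.16 lay close to the -0.06 of all expressed entries, and 4 of the 20 lay above that median.

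**Figure D4:**
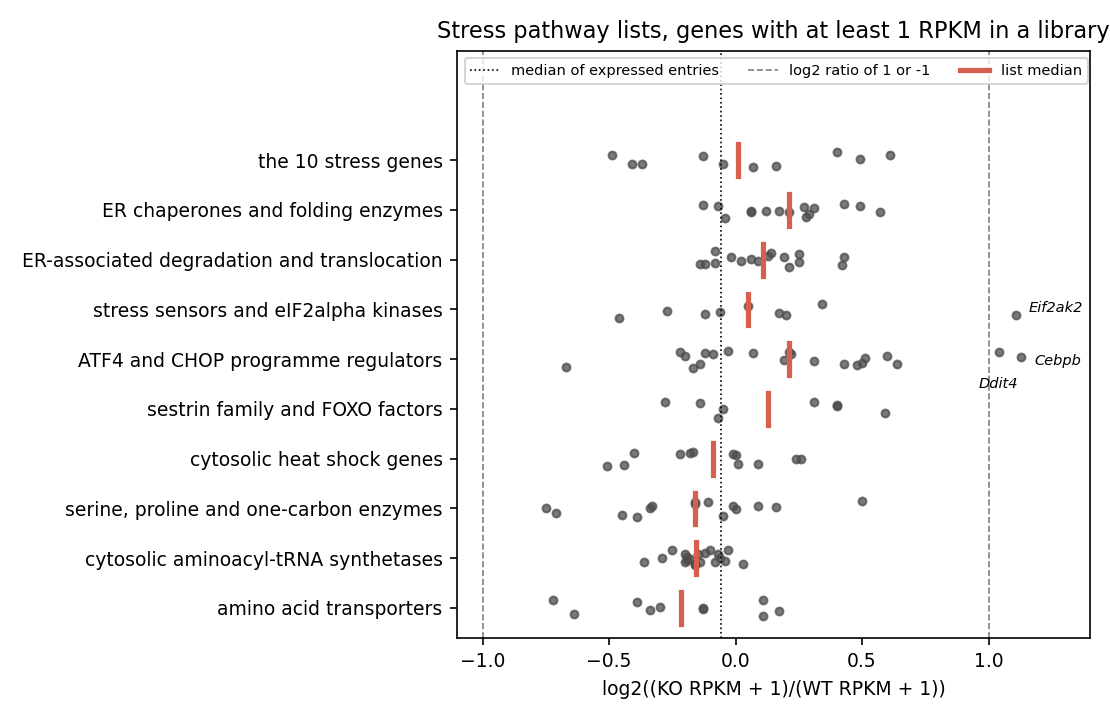
Each point is a gene with at least 1 RPKM in a library, placed by log2((KO RPKM + 1)/(WT RPKM + 1)), with 1 row per list and red bars for list medians. The dotted line is the median of expressed entries and the dashed lines mark 1 and -1. List medians run from -0.22 for amino acid transporters to 0.21 for ER chaperones and for ATF4 and CHOP regulators, and the named points Eif2ak2, Cebpb and Ddit4 lie above 1.

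Sesn3 (chr9:14276301-14326134) encodes a sestrin, a family that restrains mTORC1 and that FOXO factors and stress pathways regulate. It was the lowest member in both libraries, with 3.17 RPKM in WT and 2.82 RPKM in KO. The ratio of 0.89 had a counting interval of 0.72 to 1.09, which held 1. Its relative Sesn2, which ATF4 induces, had 23.3 and 29.2 RPKM (log2 ratio 0.31), and Sesn1 had 2.93 and 2.23 RPKM (-0.28). Foxo3, a FOXO factor, had 16.3 RPKM in WT and 25.0 RPKM in KO (0.59). Foxo4, another, had 6.12 and 5.79 RPKM (-0.07), with a counting interval of 0.84 to 1.06 that held 1.

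Over the 131 distinct genes of these lists and that of cytosolic heat shock genes, 125 reached 1 RPKM in a library. Among them 3 had a log2 ratio above 1 and 0 below -1, where 1.99% and 0.68% of all entries with 1 RPKM in a library did. At 1.5-fold 6 were higher and 5 lower, beside 4.63% and 4.94% of those entries, so the counts of the lists were near the background.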

How the data were processed

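RNA of MEF WT and MEF NEAT1 KO cultures was sequenced from poly-A RNA, 1 library each. The authors computed and deposited RPKM values for 23329 entries, without a stated normalization between libraries. The submitters' processing notes name CASAVA 1.8 and mm10; the counting tool is not given in the sources used here. Starts in the files count from 0, so 1 was added; 6054 of 22483 entries with a transcript in GENCODE M21 (GRCm38) then had exactly its span. Log2 ratios used a pseudocount of 1, and every entry was kept.

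Depth was estimated from entries below 0.4 RPKM × kb with 1 transcript and the same span in GENCODE (855 in WT, 823 in KO). A step of 0.01593 in WT and 0.01688 in KO gave whole multiples, within 0.1 step, for 56.3% and 57.2% of them. Values at 2 steps were the most frequent (137 in WT and 152 in KO, against 86 and 74 at 1 step), so 2 reads were taken as a pair. The remaining values were not whole, so pair numbers are estimates and no count model was fitted. Intervals are exact binomial (Clopper-Pearson) on these pairs.

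The members and lists were chosen with earlier results of these data known. Genes named are the members, Neat1 and, per list, up to 3 highest and 3 lowest with at least 1 RPKM in a library, a few of which are not reported here. Sesn2, Hspe1, Hspa8, the eIF2 subunits, Isg15, Mars, Ddx3y and markers were named in addition, after their values were seen. The alternatives tried were 0.1 as pseudocount, only entries that reach 1 RPKM in a library, centring, quantile normalization, upper-quartile scaling, 1 entry per symbol, and other thresholds. Promoter sequences are from RefSeq. Scripts were tested on simulated data. Python 3.11.15, numpy 2.4.6, pandas 2.3.3, scipy 1.17.1 and matplotlib 3.10.9 were used.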

Additional observations from a re-analysis of the deposited data

How the results depend on the processing

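The signs of 9 of the 10 members were the same under each pseudocount, filter and scaling tried. The exception was Trib3, whose log2 ratio ran from -0.05 to 0.02. Hspa5 had the widest range, from 0.18 after quantile normalization to 0.55 after centring. At the 1.5-fold threshold, 1 member lay above it in place of 0. The number of entries above the threshold was 228 and became 500 with a pseudocount of 0.1, 553 at 1.5-fold and 52 at a log2 ratio of 2. The number below was 78 and became 540, 593 and 4 for these choices in turn. The median log2 ratio of ER chaperones was 0.21, and 0.11 after quantile normalization. No other list median moved by more than 0.1. One entry per symbol changed nothing because no symbol stands on several entries. No paired analysis was possible because each genotype has 1 library without a replicate number, and for the same reason no library could be left out. The counting intervals of Trib3 and Sesn3 held 1, and with 1 library per genotype no interval covers the variation between cultures.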

Other observations

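The subunits of eIF2, the factor whose phosphorylation starts the response, were examined after their values had been seen. Eif2s1 (α subunit) had 18.6 RPKM in WT and 13.3 RPKM in KO, and Eif2s2 (β subunit) had 17.3 and 12.3 RPKM, log2 ratios of -0.46 and -0.47. Eif2s3x, the X-linked gene of the γ subunit, had 16.1 RPKM in WT and 8.71 RPKM in KO (-0.82). Its Y-linked copy Eif2s3y was listed at 0 in WT and had 6.30 RPKM in KO. The sum of the X and Y copies was 16.1 RPKM in WT and 15.0 RPKM in KO. The X and Y copies are close in sequence and could share reads, and how the counting treated such reads is not given in the sources used here.

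Of 12 heat shock genes of the cytosol and mitochondria, 8 were lower in KO and 4 higher, with a median log2 ratio of -0.09. This was near the 60.8% lower and the median of -0.06 among all entries with 1 RPKM in a library. The mitochondrial chaperone Hspd1 had 77.4 RPKM in WT and 54.0 RPKM in KO (-0.51), while its partner Hspe1 had 141 and 151 RPKM (0.09). Hsp90aa1 (55.6 and 40.7 RPKM, -0.44) and Hspb1 (54.0 and 40.6 RPKM, -0.40) were lower too. Hspa8, the constitutive cytosolic relative of Hspa5, had 210 and 181 RPKM (-0.22). Hspa1a (3.21 and 4.04 RPKM) and Hspa1b (9.92 and 11.9 RPKM) are near-identical copies that could share reads. Among the genes of the FOXO and sestrin list, Txnip had 51.0 and 67.7 RPKM (0.40) and Ccng2 6.83 and 9.34 RPKM (0.40), whereas Irs2 had 10.6 and 9.48 RPKM (-0.14).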
